A study of Homo sapiens with 4 samples.

Results

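The lysosomal membrane genes described here encode the proton pump of the lysosome, its membrane glycoproteins, its channels and transporters, and the Ragulator and Rag proteins that dock on it. Members were taken by symbol alone: all genes whose symbol starts with ATP6V0 or ATP6V1, ATP6AP1 and ATP6AP2, LAMTOR1 to LAMTOR5, and 18 listed genes such as LAMP1, MCOLN1 and CTNS. Of the 17687 named genes of the array, 43 were members, each with a single array feature. The gene table holds 4 more protein-coding genes that match, ATP6V0A1, ATP6V0A4, ATP6V1E2 and LAMTOR1, which were not analysed here. The cells were NB4-R4, a resistant derivative of NB4, a human line of acute promyelocytic leukaemia, which does not respond to all-trans retinoic acid (ATRA), the drug that makes such cells mature. They were given MK-8776, an inhibitor of the checkpoint kinase CHK1, at 4 µM for 96 h, or the vehicle DMSO for 96 h. Total RNA of live cells was measured on 4 Affymetrix arrays, 2 per group. All arrays come from this single resistant subclone, and the labels do not say how the replicate cultures were separated, so p-values measure only the spread between these samples.

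The lysosome is kept acid by the V-ATPase, a rotary pump whose cytosolic V1 sector splits ATP and whose membrane V0 sector carries the protons. Its membrane is lined by heavily glycosylated proteins such as LAMP1 and LAMP2 and holds ion channels and exporters for the products of digestion. Ragulator anchors the Rag GTPases there, which bring the growth kinase complex mTORC1 to the lysosome when amino acids are plentiful. Many of these genes carry E-box letters near their start that the MiT/TFE factors, such as TFEB and TFE3, are known to bind. Myeloid cells use the same acid compartment to break down what they engulf.

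Promoter stretches of the members with the 8-letter E-box palindrome TCACGTGA before the start are shown first, because the members with the largest changes, MCOLN1, ATP6V0D1 and LAMP1, are among them. Windows came from RefSeq (GRCh38.p14) and covered 250 bases before to 50 bases after each gene's start, and only bases before the start are printed. Capitals mark CACGTG, or TCACGTGA where the flanking letters extend it. MCOLN1 has 2 such palindromes in chr19:7522556-7522623 (plus strand), ATP6V0D1 has 1 in chr16:67481184-67481243 (minus strand), and LAMP1 has 1 in chr13:113297184-113297238 (plus strand). The capitals at the right end of that LAMP1 stretch open another TCACGTGA that runs across the start. Farther upstream, at chr13:113297020-113297129, LAMP1 has 4 closely spaced copies of CACGTG. ATP6V1G1 (chr9:114587684-114587743, plus strand) and RRAGB (chrX:55717697-55717748, plus strand) carry the palindrome too and are shown because their expression did not pass the test.
MCOLN1: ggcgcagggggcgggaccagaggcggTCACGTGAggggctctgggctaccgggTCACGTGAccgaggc
ATP6V0D1: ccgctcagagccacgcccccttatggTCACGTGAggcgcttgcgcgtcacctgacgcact
LAMP1, next to the start: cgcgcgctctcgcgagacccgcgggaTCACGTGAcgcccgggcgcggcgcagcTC
LAMP1, upstream: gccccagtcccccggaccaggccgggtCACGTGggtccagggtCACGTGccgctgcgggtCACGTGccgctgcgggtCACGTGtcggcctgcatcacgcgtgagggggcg
ATP6V1G1: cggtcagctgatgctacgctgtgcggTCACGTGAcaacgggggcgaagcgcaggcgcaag
RRAGB: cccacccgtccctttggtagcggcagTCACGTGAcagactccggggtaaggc

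After MK-8776, 10 of the 43 lysosomal membrane genes rose and 0 fell. The risers were MCOLN1, ATP6V0D1, LAMP1, CTNS, OSTM1, LAMTOR3, ATP6V1E1, ATP6V1C1, RRAGA and ATP6V1H, with folds from 2.11 to 5.35. Values are expression on the log2 scale, and changes are log2 differences, MK-8776 minus DMSO. A gene was called where its adjusted p, from limma with Benjamini-Hochberg adjustment over all named genes, was under 0.05. By this rule 1.66% of all named genes rose and 2.02% fell, against 23.3% of the members rising. Among genes whose group means were not both under the median of all values (5.77), 27.8% of 36 members rose. In that set 2.94% of 9459 named genes rose and 3.65% fell. The median change of the members was 0.39, beside 0.005 over all named genes. Without the threshold, 34 members (79.1%) were higher and 9 were lower, where 50.6% of all named genes were higher. At an unadjusted p under 0.05 (limma), 18 members were higher and 0 lower, where 8.61% and 10.2% of all named genes were. In 26 members both MK-8776 arrays lay above both DMSO arrays, and in 2 both lay below, where 24.0% and 24.2% of all named genes did. Of the 36 members not under the median in both groups, 72.2% and 0% did, and 50% were higher at an unadjusted p under 0.05 (limma). Of the 9459 named genes of that kind, 27.5% and 32% did, and 12.6% were higher at an unadjusted p under 0.05 (limma). When each array was left out in turn, limma called 0 members every time. Such a fit has 1 residual degree of freedom and takes the lone array of a group to vary like the other group, so it has little power. The changes of the 10 called genes lay between 0.89 and 2.81 in these fits. With DMSO replicate 1, DMSO replicate 2, MK-8776 replicate 1 and MK-8776 replicate 2 left out in that order, 15, 11, 11 and 19 members had an unadjusted p under 0.05, and over all named genes 0, 0, 7 and 34 genes were called.

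**Figure D1:**
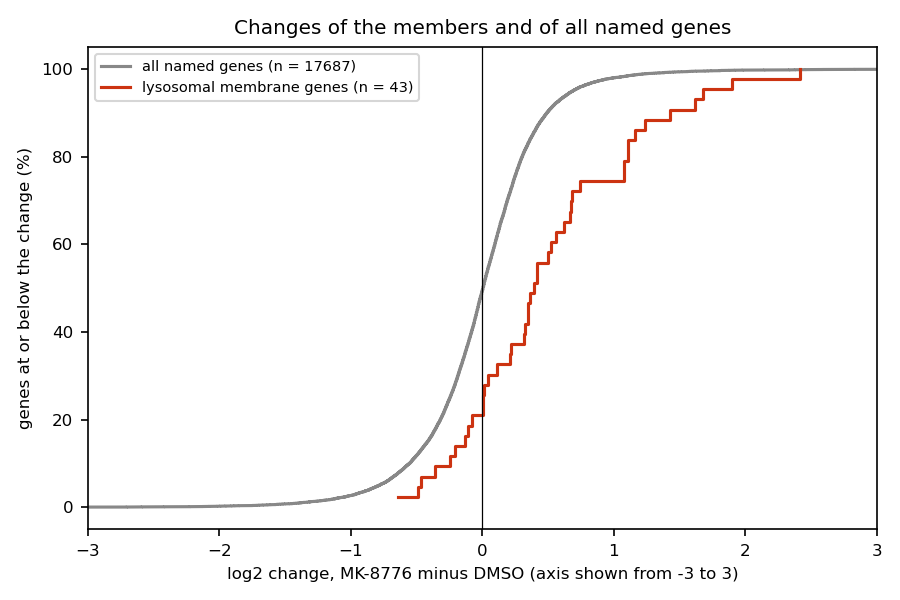
Cumulative share of genes (%, vertical axis) at or below each log2 change, MK-8776 minus DMSO (horizontal axis), for the 43 lysosomal membrane genes (red) and all 17687 named genes (grey). The red curve lies to the right of the grey one, with a median of 0.39 against 0.005.

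The 10 called genes had changes from 1.075 for ATP6V1H to 2.42 for MCOLN1. ATP6V1D, at 1.08, was the single member of that range that did not pass. The other members lay between -0.645 for ATP6V1G2 and 0.745 for SLC38A9.

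In the V1 sector 3 of 12 measured genes rose and 9 did not pass. ATP6V1E1, which encodes a stalk subunit that ties the ATP-splitting head to the membrane part (chromosome 22, 17592136 to 17628822), read 8.91 and 9.16 in DMSO and 10.18 and 10.21 in MK-8776. Its arrays were nearly level within MK-8776 and the groups did not overlap, and the log2 change came to 1.16 (SE 0.21, adjusted p = 0.026, limma). ATP6V1C1 encodes the subunit at the foot of these stalks, and read 10.15 and 9.91 in DMSO against 11.17 and 11.11 in MK-8776. The groups did not overlap, and the difference was 1.11 (SE 0.21, adjusted p = 0.0297, limma). ATP6V1H, which encodes a subunit needed to couple the sectors, read 8.12 and 8.32 in DMSO and 9.48 and 9.11 in MK-8776. Both MK-8776 arrays were again the higher ones, with a change of 1.075 (SE 0.226, adjusted p = 0.0404, limma).

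ATP6V1D, the gene of the central rotor shaft, had a change close to that of ATP6V1H but did not pass. It read 7.54 and 7.53 in DMSO and 9.01 and 8.22 in MK-8776, which gave a difference of 1.08 (95% interval 0.44 to 1.72, adjusted p = 0.0796, limma). The groups did not overlap, but the MK-8776 arrays lay 0.79 apart, and the gene passed with a variance trend (lowest adjusted p over the alternatives with all arrays 0.0469). ATP6V1B2, which encodes the B subunit of the head in most tissues, read 11.55 and 11.33 in DMSO and 12.25 and 11.96 in MK-8776 (change 0.665, adjusted p = 0.149, limma). ATP6V1A, which encodes the catalytic A subunit of the same head, read 10.19 and 10.21 in DMSO and 10.24 and 9.75 in MK-8776. Its groups overlapped, and its change of -0.205 had an interval from -0.741 to 0.331, which lies below the point estimate of every called V1 gene. ATP6V1F and ATP6V1G1, of the shaft and the stalks, had changes of 0.35 and 0.415 (adjusted p = 0.476 and 0.328, limma). ATP6V1F read 14.12 and 14.55 in DMSO and 14.69 and 14.68 in MK-8776.

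The other V1 members are the versions of subunits that the kidney, brain or other tissues use. ATP6V1B1, ATP6V1C2, ATP6V1G2 and ATP6V1G3 lay under the median of all values (5.77) in both group means, with array values from 4.36 to 6.10. Their changes ran from -0.645 for ATP6V1G2 to 0.36 for ATP6V1G3, and none passed. ATP6V1G2 read 5.08 and 6.10 in DMSO and 4.88 and 5.01 in MK-8776, so that its lower mean rests largely on a single DMSO array. The change of ATP6V1C1 can thus be set beside -0.245 for its paralog ATP6V1C2, which read 4.74 and 4.83 in DMSO and 4.36 and 4.72 in MK-8776.

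In the V0 sector 1 of 7 measured genes rose, and 6 did not pass. ATP6V0D1 (chromosome 16, 67438019 to 67481157) encodes the d subunit, which links the proton-carrying ring to the shaft. It read 11.89 and 11.61 in DMSO and 13.82 and 13.48 in MK-8776, with a wide gap between the groups. This 3.73-fold difference is 1.90 on the log2 scale (SE 0.228, adjusted p = 0.0068, limma). The paralog ATP6V0D2, known from osteoclasts and some macrophages, read 4.88 and 3.98 in DMSO and 4.18 and 3.70 in MK-8776 (change -0.49, adjusted p = 0.481, limma). ATP6V0D2 lay under the median of all values in both groups, and its groups overlapped.

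The other V0 genes had smaller changes that did not pass, all above 0 but that of ATP6V0D2. ATP6V0C, which encodes the main subunit of the proton-carrying ring, read 13.85 and 13.63 in DMSO and 14.72 and 14.11 in MK-8776 (change 0.675, 95% interval 0.0879 to 1.26, adjusted p = 0.204, limma). ATP6V0E1, of the small e subunit, read 15.99 and 15.93 in DMSO and 16.60 and 16.37 in MK-8776. Its change of 0.525 (adjusted p = 0.224, limma) passed only with a variance trend (lowest adjusted p over the alternatives 0.0201). ATP6V0A2, which encodes a version of the a subunit that takes part in the proton path, ATP6V0B, of the ring, and ATP6V0E2 had changes of 0.50, 0.39 and 0.56. All of these V0 genes but ATP6V0D2 had both MK-8776 arrays above both DMSO arrays. TCIRG1, the a subunit gene that the symbol rule does not take in, named here for its role in V0, read 11.52 and 11.91 in DMSO and 10.97 and 11.39 in MK-8776 (change -0.535, adjusted p = 0.288, limma). The accessory subunit gene ATP6AP1 read 10.08 and 10.32 in DMSO and 11.01 and 10.64 in MK-8776, a change of 0.625 that did not pass (adjusted p = 0.186, limma). ATP6AP2, which encodes the prorenin receptor, another accessory subunit, read 13.46 and 13.38 in DMSO and 13.53 and 13.54 in MK-8776. Its change was 0.115, with an interval from -0.347 to 0.577.

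**Figure D2:**
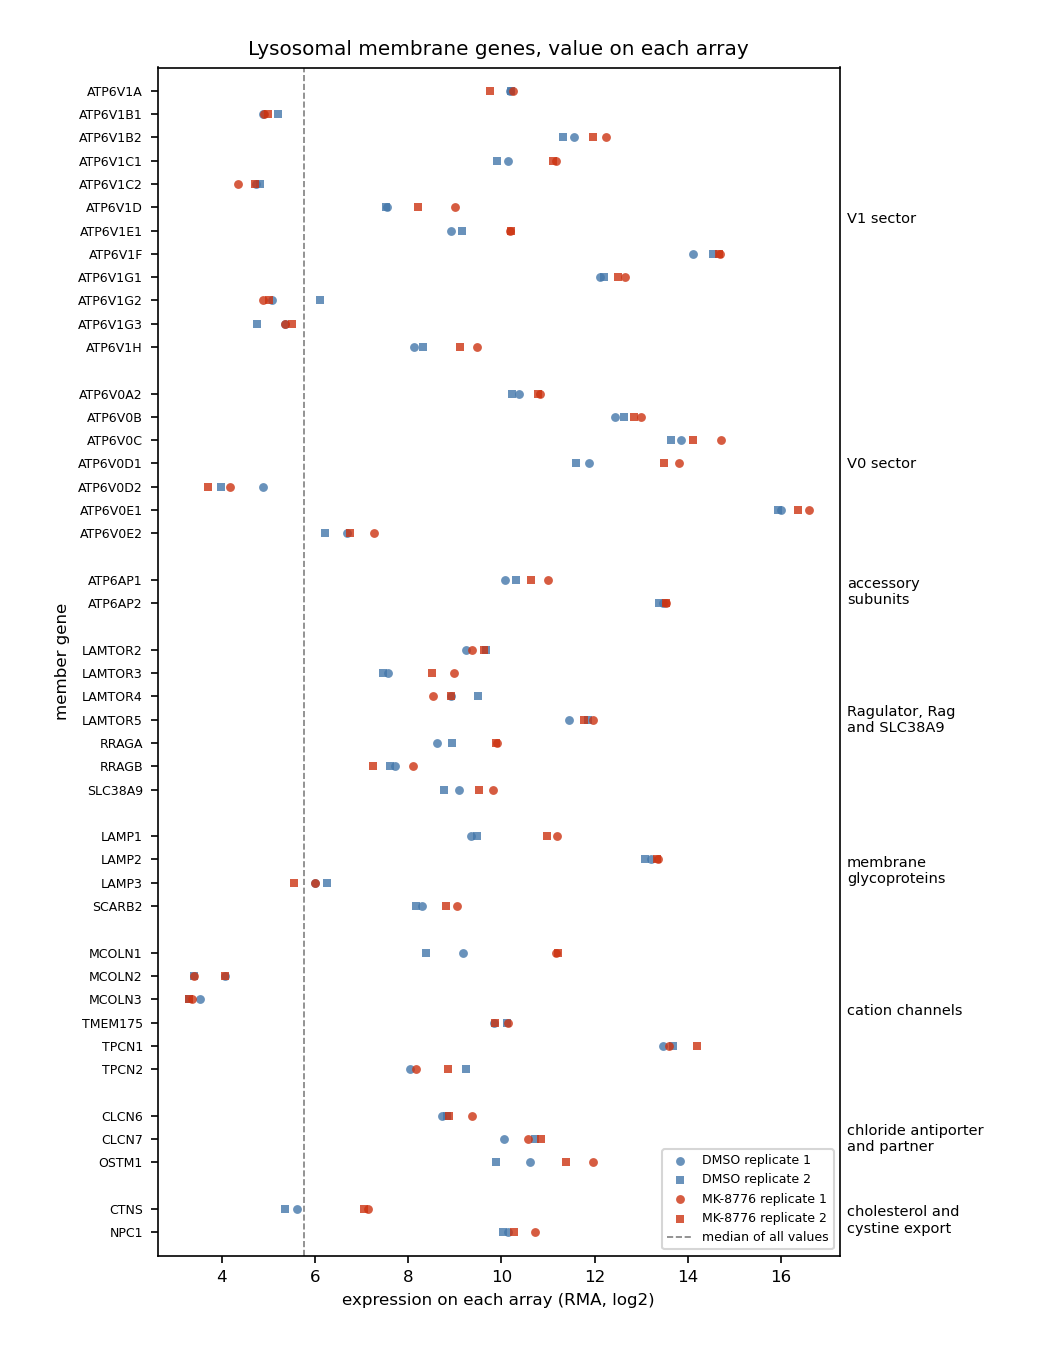
Expression of each lysosomal membrane gene (rows, grouped by role) on each array (horizontal axis, RMA value on the log2 scale), with DMSO in blue, MK-8776 in red, circles for replicate 1 and squares for replicate 2. Red lies clear to the right of blue in genes such as MCOLN1, ATP6V0D1, LAMP1 and CTNS, while ATP6V0D2, MCOLN2, MCOLN3 and the tissue-restricted V1 genes lie left of the dashed median of all values (5.77), save for ATP6V1G2 at 6.10 on DMSO replicate 2.

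Of the 4 membrane glycoprotein genes 1 rose. LAMP1 (chromosome 13, 113297239 to 113323672), which encodes the most used marker protein of the lysosomal membrane, read 9.34 and 9.47 in DMSO and 11.19 and 10.98 in MK-8776. The groups were far apart for their spread, with a change of 1.68 (SE 0.21, adjusted p = 0.00739, limma), or 3.20-fold. LAMP2, which encodes its closest relative and takes part in autophagy, read 13.21 and 13.09 in DMSO and 13.37 and 13.35 in MK-8776. Its change of 0.21 had an interval from -0.255 to 0.675, which does not reach the lower end of the interval of LAMP1 (1.2). SCARB2, which encodes the receptor that carries glucocerebrosidase to the lysosome, read 8.30 and 8.18 in DMSO and 9.04 and 8.81 in MK-8776 (change 0.685, adjusted p = 0.126, limma). LAMP3, a gene of dendritic cells and lung, had a change of -0.36 with overlapping groups (adjusted p = 0.486, limma).

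Among the cation channels MCOLN1 alone passed of 6 measured. MCOLN1 (chromosome 19, 7522624 to 7534009), which encodes the calcium channel TRPML1 that opens to the lysosomal lipid PI(3,5)P2, had the largest change of all members. It read 9.17 and 8.38 in DMSO and 11.18 and 11.21 in MK-8776. The MK-8776 arrays were nearly equal, the DMSO arrays lay 0.79 apart, and the change was 2.42 (SE 0.279, adjusted p = 0.00603, limma), or 5.35-fold. With any single array left out it was between 2.02 and 2.81. Its paralogs MCOLN2 and MCOLN3 were dim, with both group means below the array-wide lower quartile (3.97), array values from 3.29 to 4.07 and changes of 0.005 and -0.08.

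The two-pore channel genes and the potassium and proton channel gene TMEM175 did not pass. TPCN1 read 13.47 and 13.68 in DMSO and 13.59 and 14.19 in MK-8776, with overlapping groups (change 0.315, adjusted p = 0.58, limma). TPCN2 read 8.05 and 9.25 in DMSO and 8.18 and 8.85 in MK-8776. The DMSO arrays of TPCN2 lay far apart, and its change of -0.135 had a wide interval, from -1.03 to 0.765. TMEM175 had a change of 0.015, with an interval from -0.498 to 0.528.

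OSTM1 rose among the 3 genes of chloride transport. OSTM1 (chromosome 6, 108041409 to 108074741) encodes the partner that stabilises the chloride-proton exchanger CLC-7, the product of CLCN7. It read 10.61 and 9.89 in DMSO and 11.96 and 11.39 in MK-8776, a log2 difference of 1.425 (SE 0.302, adjusted p = 0.0417, limma). Both groups were wide, and OSTM1 did not pass once the arrays were quantile normalized or all features entered the fit. Its highest adjusted p over the alternatives with all arrays was 0.0528 (limma). CLCN7 itself read 10.06 and 10.73 in DMSO and 10.58 and 10.86 in MK-8776 (change 0.325, 95% interval -0.29 to 0.94, adjusted p = 0.591, limma), with overlapping groups. CLCN6, which encodes a related exchanger of late endosomes, read 8.72 and 8.83 in DMSO and 9.37 and 8.87 in MK-8776 (change 0.345, adjusted p = 0.505, limma).

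CTNS, the gene of the cystine exporter cystinosin that is defective in cystinosis (chromosome 17, 3636459 to 3663103), rose from 5.61 and 5.36 in DMSO to 7.15 and 7.05 in MK-8776. Its groups were tight and well separated, with a change of 1.615 (SE 0.211, adjusted p = 0.00832, limma). The DMSO mean of CTNS, 5.485, lay under the median of all values, so the size of its change depends on the lower part of the array's range. NPC1, which encodes the exporter of cholesterol from the lysosome, read 10.14 and 10.04 in DMSO and 10.73 and 10.28 in MK-8776. Its groups did not overlap, and its change of 0.415 (95% interval -0.113 to 0.943, adjusted p = 0.39, limma) did not pass.

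Of 7 genes for the nutrient-sensing dock, 2 rose and 5 did not pass. LAMTOR3 (chromosome 4, 99878336 to 99894546), whose product MP1 is a Ragulator scaffold that also binds MAP kinase partners, read 7.57 and 7.46 in DMSO and 8.98 and 8.52 in MK-8776. Both MK-8776 arrays were clearly higher, a change of 1.235 (SE 0.232, adjusted p = 0.0292, limma). RRAGA (chromosome 9, 19049427 to 19051025), which encodes the GTPase RagA, read 8.62 and 8.95 in DMSO and 9.91 and 9.88 in MK-8776. The groups lay apart by more than their spread, with a change of 1.11 (SE 0.217, adjusted p = 0.0326, limma). RRAGB, which encodes the close relative RagB, read 7.72 and 7.62 in DMSO and 8.11 and 7.24 in MK-8776. Its MK-8776 arrays stood on either side of the DMSO arrays, and its change was 0.005 (95% interval -0.669 to 0.679).

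None of the other measured Ragulator subunits passed, and differences between genes were not tested. LAMTOR2, which pairs directly with LAMTOR3 as its partner in the complex, read 9.24 and 9.68 in DMSO and 9.38 and 9.62 in MK-8776. The groups overlapped, and the change of 0.04 had an interval from -0.50 to 0.58, below the lower end of that of LAMTOR3 (0.704). LAMTOR4 and LAMTOR5, which form the other pair of small subunits, had changes of -0.47 and 0.215 (adjusted p = 0.393 and 0.685, limma). LAMTOR5 read 11.45 and 11.85 in DMSO and 11.96 and 11.77 in MK-8776. SLC38A9, which encodes the arginine sensor and amino acid transporter that binds Ragulator, read 9.09 and 8.78 in DMSO and 9.83 and 9.53 in MK-8776 (change 0.745, adjusted p = 0.123, limma).

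**Figure D3:**
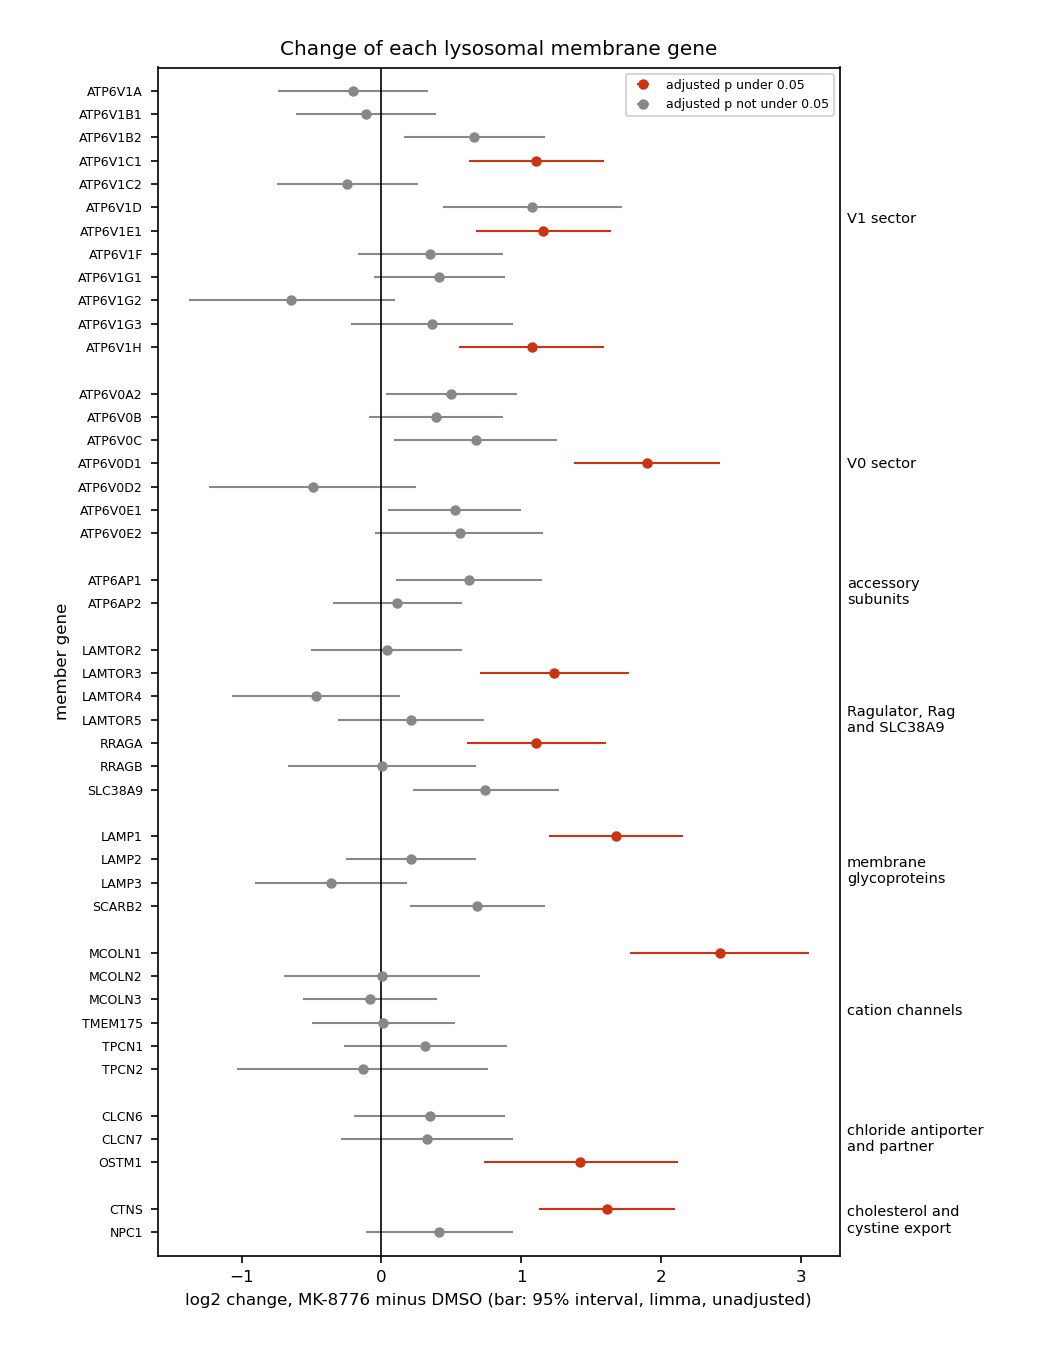
Log2 change, MK-8776 minus DMSO, of each lysosomal membrane gene (rows, grouped by role), with its unadjusted 95% interval from limma, and in red the 10 genes with an adjusted p under 0.05. The red genes lie at 1.075 and above and occur in every role group but the accessory subunits, and ATP6V1D, at 1.08, is the grey gene beside them.

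E-box letters were counted in the promoter windows of the members and of all genes. A window was on file for 33 members. There was no window to search for ATP6V1A, ATP6V1B2, ATP6V1C1, ATP6V1H, ATP6V0D2, ATP6V0E1, LAMP2, LAMP3, MCOLN2 and RRAGA. Exact matches were counted in the first window listed per gene. Both motifs are palindromes, so a match stands on both strands, and the longer motif always holds the shorter. The letters CACGTG stood in 10 of 33 member windows (30.3%), in 7.43% of the windows of all 27305 genes and in 8.69% of those of 14250 tested genes. TCACGTGA stood in 6 (18.2%), in 1.04% and in 1.43%. Counting every window listed for a gene gave the same 10 and 6 members, beside 8.77% and 1.18% of all genes. The share among the members is a description, since the genes were chosen as lysosomal, and a match is not a bound site.

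Members with TCACGTGA were MCOLN1, ATP6V0D1, LAMP1, ATP6V1G1, CLCN6 and RRAGB, with changes of 2.42, 1.90, 1.68, 0.415, 0.345 and 0.005. The palindrome began at base -42 and at base -15 from the start in MCOLN1, at -60 in ATP6V0D1, at -29 and -2 in LAMP1, at -59 in ATP6V1G1 and at -26 in RRAGB, and in CLCN6 at base 3 of the transcript. The motif thus stood in the 3 members with the largest changes, and also in 3 that did not pass. ATP6V0B, ATP6V0E2, CLCN7 and LAMTOR4 had CACGTG without the longer palindrome, with 0 calls among them (limma) and changes from -0.47 to 0.56. The called genes CTNS, OSTM1, LAMTOR3 and ATP6V1E1 had windows without either motif. Over all 204 tested genes with TCACGTGA in their window, 9 rose (4.41%) and 3 fell (1.47%), against 1.64% and 1.84% of the 13012 tested genes whose window held no CACGTG. MCOLN1, ATP6V0D1 and LAMP1 are 3 of those 9. Over all 1238 tested genes with CACGTG, the longer palindrome included, falls were more numerous, with 26 rises (2.1%) and 51 falls (4.12%).

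**Figure D4:**
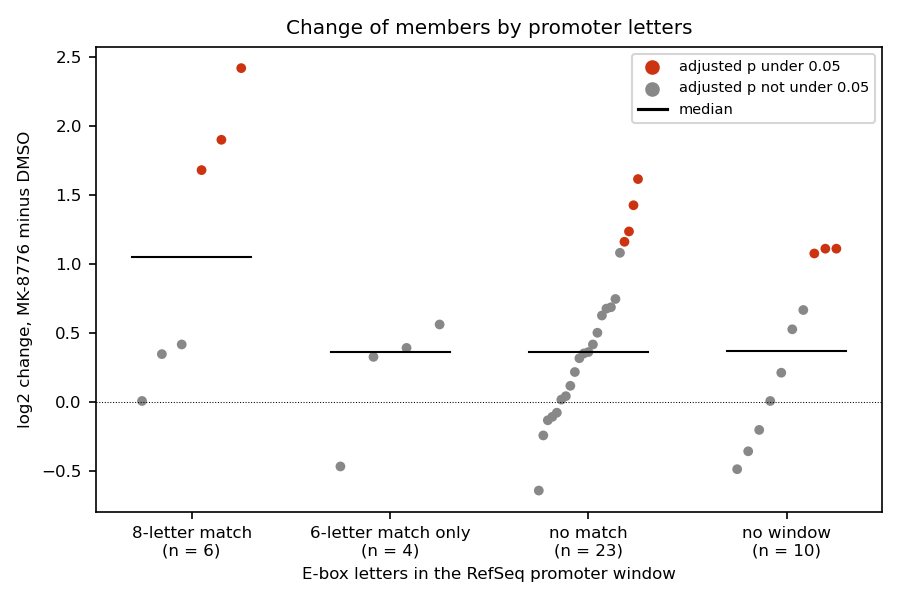
Log2 change, MK-8776 minus DMSO (vertical axis), of each lysosomal membrane gene, by the E-box letters in its RefSeq promoter window (columns), with called genes in red and the median as a bar. The column with TCACGTGA holds 6 genes, 3 of them red and above all other members, and the called genes CTNS, OSTM1, LAMTOR3 and ATP6V1E1 stand in the column without a match.

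Other genes of the pathway, from lists of partners, were counted in the same fit, and the lists were not compared by a test. Of 16 measured partners of the V-ATPase (assembly factors, regulators and TCIRG1), WDR7 rose by 1.275 (adjusted p = 0.0405, limma), 0 fell and 15 did not pass, with a median change of 0.0975. WDR7 encodes a partner of the DMXL proteins, which help to join the sectors of the pump. Of 39 genes of mTORC1 nutrient sensing, RRAGC, the gene of RagC that pairs with RagA, rose by 1.395, and TFE3, a MiT/TFE factor gene, rose by 1.325 (adjusted p = 0.0225 and 0.0247, limma). The other MiT/TFE factor genes were dim. TFEB and MITF lay under the array-wide lower quartile (3.97) on all arrays, and TFEC read 3.97 and 3.80 in DMSO and 3.85 and 3.92 in MK-8776. NPRL2, of the GATOR1 complex that switches RagA off, and SESN3, of the leucine-sensor family, changed by -1.265 and -1.885 (adjusted p = 0.0344 and 0.0228, limma), and 35 did not pass. Of 13 genes of the BORC complex and lysosome position 0 passed in limma, and the largest changes were 0.905 for BLOC1S2 and 0.73 for BORCS7 (adjusted p = 0.0592 and 0.111).

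Of 56 other genes of the lysosomal membrane and its traffic, 4 rose, 0 fell and 52 did not pass, with a median change of 0.1875. ACP2, a membrane-anchored acid phosphatase gene, rose by 1.92, the haem transporter gene SLC48A1 by 1.715, the lysophospholipid exporter gene SPNS1 by 1.415 and the tetraspanin gene CD63 by 1.145 (adjusted p = 0.00441, 0.0149, 0.0164 and 0.0297, limma). Of 41 measured genes of hydrolases and enzymes of the lumen, CTSA and CTSD, which encode cathepsins, rose by 1.56 and 1.225 (adjusted p = 0.00817 and 0.0297, limma), 0 fell and 39 did not pass, with a median of 0.09. Over these 165 genes of the partner lists together, 9 rose and 2 fell, where 1.66% and 2.02% of all named genes did.

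Markers of the labelled cell type and of other blood cells were read on the same arrays. Of 13 measured promyelocyte markers 3 fell and 0 rose, which were CTSG (-2.2), PRTN3 (-2.005) and PRSS57 (-1.385), all genes of granule proteases. MPO, the myeloperoxidase gene, read 16.09 and 16.27 in DMSO and 14.81 and 15.36 in MK-8776 (adjusted p = 0.0514, limma), while KIT was below the array-wide lower quartile on all arrays. Of 19 monocyte and macrophage markers, 4 rose (CD86, C1QA, C1QC and CD14) and FCGR1A fell, and the mean level of that list ran from 6.452 to 6.499 in DMSO and from 6.73 to 6.88 in MK-8776. Macrophage genes such as MRC1 and MSR1 lay under the lower quartile on all arrays. Of 9 osteoclast markers MMP9 rose, by 2.83, 0 fell and 8 did not pass. ITGB3 and NFATC1 lay under the lower quartile on all arrays. Of 13 mature neutrophil markers S100A8, S100A9 and FPR1 rose, by 4.275, 4.215 and 2.58, more than any member. The other 10 did not pass, and 9 changes of that list were above 0 and 4 below. LTF and ITGAM changed by -0.95 and -0.69 (adjusted p = 0.0534 and 0.208, limma), and LCN2, MMP8 and FCGR3B lay under the lower quartile on all arrays. Lymphoid and erythroid or megakaryocyte markers each had 1 rise and 1 fall among 10 and 9 measured genes. The part of these shifts in the rise of the lysosomal membrane genes was not tested. In such bulk RNA, a change in the mix of cells and a change of RNA per cell cannot be told apart.

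The arrays of a group differed for the members too. MK-8776 replicate 1 read higher than replicate 2 in 30 of 43 members (69.8%), where it did so in 50.1% of all named genes. The members' median difference from the DMSO mean was 0.49 in replicate 1 and 0.345 in replicate 2. The gene table names pseudogenes after ATP6V0C (4), ATP6V0E1 (4), ATP6V1E1 (3), ATP6V1F (1), ATP6V1G1 (7), LAMP1 (1), LAMTOR3 (2), LAMTOR5 (1) and RRAGA (1). How much of each of these signals comes from the named gene is therefore uncertain.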

How the data were processed

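The deposited table gives a log2 value for each feature on each array, made with RMA (background correction, normalization between arrays, summary of probes) on build hg38, per the submitters' processing notes. Its version, settings and filters were not given in the sources used here. The log2 scale was read from the range of the values (2.16 to 18.54, array medians 5.76 to 5.79), and another scale would change the folds. There is no detection call, and the number of arrays limits the precision. RMA makes arrays alike in distribution, so changes are relative to the other genes.

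Of 21448 features 17709 had exactly 1 gene symbol, 0 several and 3739 none. The feature with the highest mean was taken for 20 genes with several, which left 17687, all matched by gene number to the RefSeq table (GRCh38.p14). MK-8776 was tested against DMSO with limma 3.58.1 under R 4.3.3 (lmFit, then eBayes, two-sided, dim features kept), with 2 residual and 6.30 prior degrees of freedom and Benjamini-Hochberg adjustment over all 17687 genes at 0.05. Intervals are unadjusted 95% intervals of limma. The fit was also run on simulated data whose spreads were drawn from the fit's own prior. Such data keep to the assumptions of limma, so the run could not test those assumptions on these arrays. With 2 arrays a group, the smallest p of an exact permutation test is 0.333.

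Named with values are the called members, in each role group the member with the largest change and the one with the highest mean among those that did not pass, and up to 4 called genes of each partner list (the 2 largest changes where none passed). Further members and markers were chosen after their values were seen. Members, lists and tests were chosen with earlier results of these data known. The alternatives are named in the closing section.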

Additional observations from a re-analysis of the deposited data

How the results depend on the processing

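Over the alternatives with all 4 arrays, the members' calls ran from 5 to 12, with 0 falls in each of them, and their median change from 0.3825 after quantile normalization to 0.5125 among the 36 members above the median level. With a replicate block, on numbers that the labels tie to no shared day or culture, 5 members were called in place of 10 (ATP6V1C1, ATP6V1E1, ATP6V1H, LAMTOR3 and RRAGA missed the threshold), 309 in place of 652 of all named genes and 6 in place of 11 partner genes. The deviations of equal numbers correlated at 0.139 over genes, and with 2 pairs this does not show pairing. With a variance trend, 12 members, 1185 of all named genes and 18 partner genes passed, and with robust estimation 12, 1162 and 18. Among genes above the median level, 10 of 36 members and 942 of 9180 named genes passed. Leaving out each array in turn gave 0 members, 0 partner genes and 0 to 34 of all named genes, with the members' median change between 0.345 and 0.49. With all features tested and after quantile normalization 9 members passed, beside 562 and 581 of all named genes. After median centring and with the mean of a gene's features 10 members passed, beside 686 and 650 of all named genes. Each of the 10 called members kept a positive change in all of its alternatives. Without scanner files, signal over background could not be set, so for members under the median of all values the lack of a call says little.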
